A study of Mus musculus with 37 samples.

Results

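Fat fibroblasts grown with macrophages were compared with fat fibroblasts grown alone, using 5 of the 37 RNA libraries of a study of how fibroblasts and macrophages affect each other. These 5 libraries, out of 21 from fibroblasts, were all those of fat fibroblasts: 3 co-cultures, numbered 1, 2 and 3, and 2 mono-cultures, numbered 1 and 3 in the deposited table. The study measured 3′ ends of polyadenylated RNA in bulk, in bone marrow-derived macrophages and in fibroblasts of fat, lung and mammary fat pad. All animals were BALB/c mice aged 8 weeks with no named transgene or deletion. The fibroblasts came from mesometrial fat, the fat beside the uterus, and each fat replicate pooled the cells of 2 females. Both groups were expanded in culture, cleared with magnetic beads of epithelial cells, by EpCAM, and of leukocytes, by CD45, and plated on collagen I in DMEM with 10% serum. One group was plated without macrophages. The other was plated with macrophages that had been differentiated from bone marrow in medium conditioned by L929 cells, which secrete the growth factor CSF1. On day 7, live cells negative for the macrophage surface proteins F4/80 and CD11b were sorted as fibroblasts, which the labels also call non-immune stromal cells, a gate that can hold other stromal cell types.

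Fibroblasts build and remodel the connective tissue of fat, and they share it with macrophages, which depend on CSF1 and in turn release growth factors and cytokines. A part of what follows concerns the lysosome, the acidic compartment in which cells break down what they take up and their own worn parts. A proton pump, the V-ATPase, keeps it acidic, hydrolases degrade its contents, and membrane channels and carriers release ions, amino acids and sugars. Many lysosomal genes carry in their promoters a short element that TFEB and related transcription factors bind. Another part concerns genes that cells switch on when oxygen is scarce, through transcription factors of the HIF family that the EGLN prolyl hydroxylases mark for destruction when oxygen is ample.

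The fat libraries held 3597705 to 5407085 counts. In the shallowest of them 3 counts equal 0.834 CPM, where CPM is a count scaled to library size. All levels below are CPM after TMM scaling, and values are given in the order co-culture 1, 2 and 3 and then mono-culture 1 and 3. The labels call the libraries of a group repetitions. The p-values measure only the spread between libraries within groups, estimated over all 21 fibroblast libraries and not from the fat libraries alone. The label of fat fibroblasts was checked against markers. The 14 fibroblast markers, among them Col1a1, Dcn and Pdgfra, were detected in every library and summed to 13080 to 16490 CPM. Markers of mesothelium, the sheet that covers the organs of the belly, were also high, with 9 of 10 in the table and sums of 2395, 1211, 2655, 3361 and 1805 CPM. The groups overlapped in this sum. Smooth muscle and pericyte markers, with 12 of 12 in the table, summed to 1710, 3066, 1540, 1832 and 1397 CPM, and the groups overlapped here too. Des alone held 1229, 2018, 1203, 1471 and 1161 CPM of these sums. Adipocyte markers were mostly missing: 4 of 8 were in the table, and these summed to 106 to 172 CPM. None of the 11 markers of T, B and NK cells was in the table, and the 4 of 11 epithelial markers that were in it summed to 10.9 to 47.9 CPM.

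Summed macrophage and endothelial markers lay apart between the cultures, although edgeR called none of the 20 macrophage markers and 1 of the 12 endothelial markers. Of the macrophage markers 11 were higher at an unadjusted p under 0.05, as were 545 of all 12421 genes tested. DESeq2 called Csf1r among them. The 20 macrophage markers summed to 3756, 1265 and 705 CPM in the co-cultures and to 475 and 384 in the mono-cultures, and 17 of them had every co-culture above both mono-cultures, as did 16.7% of all genes tested. Co-culture 1 held far more than the others. Set against the mean level in macrophages co-cultured with fat fibroblasts, 19 of these markers gave a median macrophage share of 3.96%, 0.901% and 0.381% in co-cultures 1, 2 and 3. Single markers ranged widely around these, for example from 1.04% to 8.99% in co-culture 1. The 12 endothelial markers went the other way, with 81.4, 144 and 110 CPM against 383 and 224. In such bulk samples, fewer cells of a type and less RNA per cell cannot be told apart. Summed Schwann cell markers stood at 83.2, 145 and 103 CPM against 201 and 296.

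**Figure D1:**
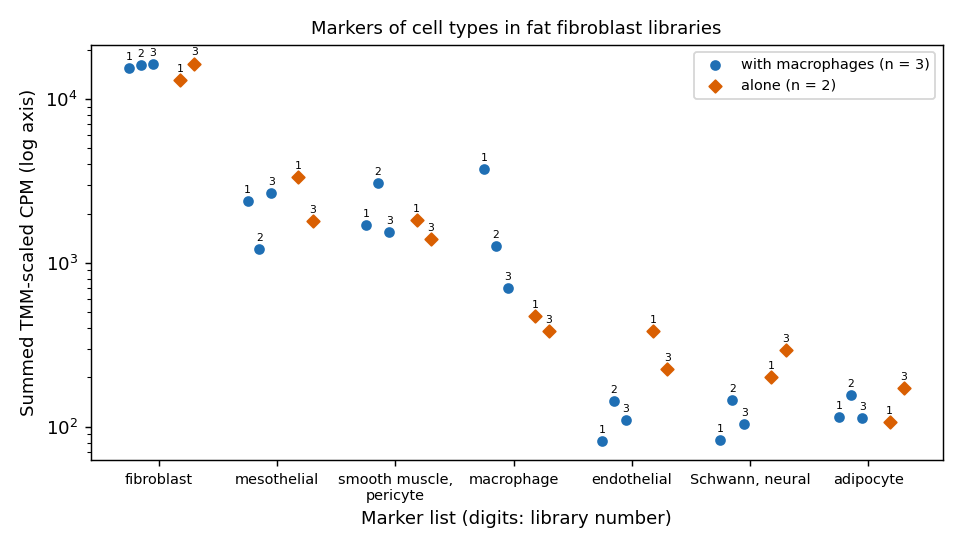
Summed TMM-scaled CPM of marker lists (log axis) in the 5 fat fibroblast libraries, with circles for co-cultures, diamonds for mono-cultures and digits for the library number. Macrophage markers were highest in co-culture 1 (3756 CPM), and endothelial markers were higher in both mono-cultures (383 and 224 CPM) than in any co-culture.

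Of the 12421 genes tested, 25 (0.201%) differed between fat fibroblasts with and without macrophages at an adjusted p under 0.05 in edgeR's quasi-likelihood test. Of these, 5 (0.0403%) were higher and 20 (0.161%) lower with macrophages. The higher genes were Mgarp, Klf2, Egln3, Cd248 and Arf2. The lower genes included a run of lysosomal membrane proteins, a group of endothelial genes, and Mlana, Mamdc2, Cdo1, Pparg and Slc6a8. Over all genes tested the median log2 fold change was 0.02, and 47.6% of them were below 0. At an unadjusted p under 0.05, 545 genes were higher and 683 lower. The calls depended on every library. Leaving out co-culture 1, 2 or 3 gave 0, 2 and 6 calls, of which 0, 1 and 5 were among the 25. Leaving out mono-culture 1 or 3 gave 7 and 0 calls, of which 4 and 0 were among the 25. Of the 25 genes, 17 lost their call whichever library was left out, Cdo1 and Mgarp kept it in 2 of 5 cases and Klf2, Cd248, Ctns, Slc6a8, Pparg and Mamdc2 in 1, although all 25 kept their direction each time. DESeq2 called 142 genes, 51 higher and 91 lower, and these included all 25. A fit to the 5 fat libraries by themselves called 0 genes, with 1460 at an unadjusted p under 0.05.

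**Figure D2:**
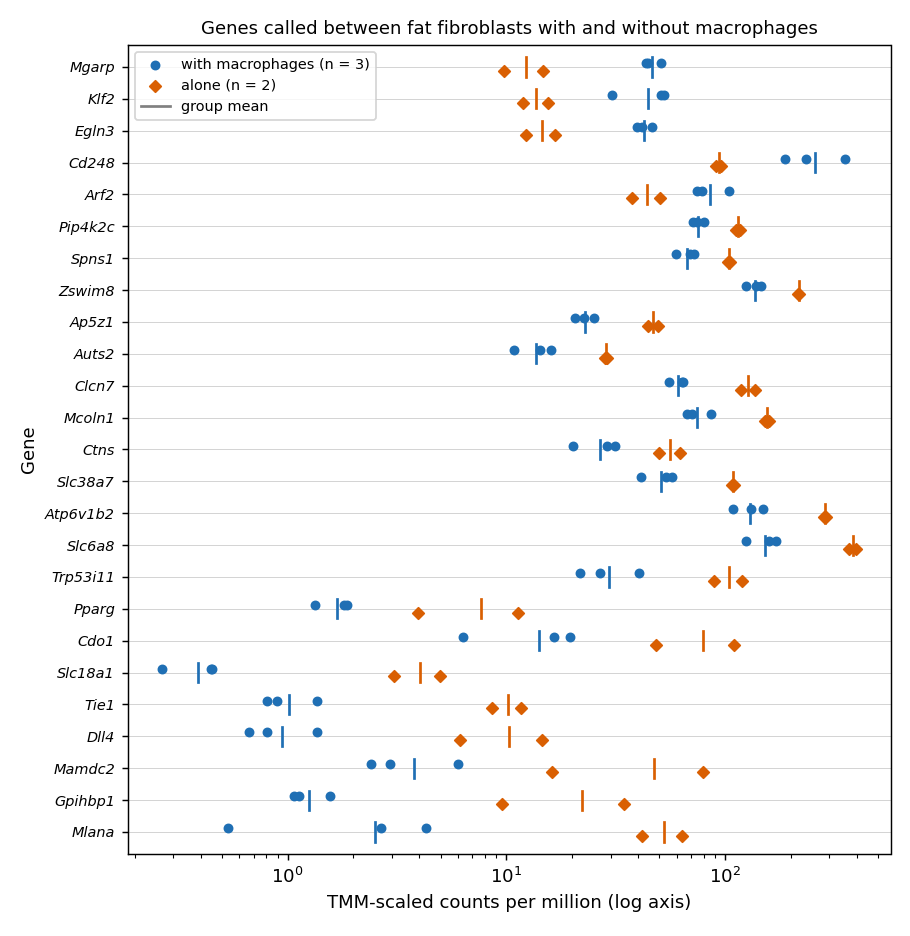
TMM-scaled CPM (log axis) of the 25 called genes in each fat fibroblast library, with circles for the 3 co-cultures, diamonds for the 2 mono-cultures and a vertical bar for each group mean. In none of the 25 genes did a co-culture overlap a mono-culture, but they were selected by their calls on these same libraries. Over all genes tested, the groups also lay apart in 16.7% (higher with macrophages) and 15.2% (lower).

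Proteins of the lysosomal membrane formed the largest set of lower genes. Clcn7 encodes the chloride and proton exchanger of the lysosome. It stood at 64.0, 55.7 and 63.7 CPM with macrophages and at 118 and 137 CPM alone. Its level with macrophages was about the same in each library and under every mono-culture value, a log2 fold change of -1.06 ± 0.18 (SE; adjusted p = 0.0188). Mcoln1, the calcium channel of late endosomes and lysosomes, was measured at 70.4, 66.8 and 86.6 CPM against 153 and 159 CPM. The mono-cultures nearly coincided, and the log2 fold change was -1.07 ± 0.22 (adjusted p = 0.0472).

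Carriers that export small molecules from the lysosome gave the same picture. Ctns, the cystine carrier whose loss causes cystinosis in humans, stood at 31.3, 20.2 and 28.7 CPM against 49.9 and 62.0 CPM. Slc38a7, a carrier of glutamine and asparagine, stood at 53.8, 41.4 and 57.4 CPM against 108 and 110 CPM. Both fell, by 1.07 and 1.10 on the log2 scale (adjusted p = 0.0188 and 0.0295), with co-culture 2 the lowest library for each. Spns1, which exports lysophospholipids, stood at 59.9, 69.5 and 72.3 CPM against 106 and 103 CPM. Its fall was smaller but tight within groups (-0.63 ± 0.12; adjusted p = 0.0305).

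The proton pump and the traffic to lysosomes each had a called member. Atp6v1b2, the B subunit of the catalytic part of the V-ATPase, stood at 109, 149 and 131 CPM against 285 and 289 CPM. This 2.21-fold fall (log2 -1.15 ± 0.19; adjusted p = 0.0188) left all co-cultures well below both mono-cultures. Its span overlaps by 590 bases that of Slc18a1, which lies on the opposite strand and was also called lower. The overlap lies at the 5′ ends of both genes, whereas the libraries measured 3′ ends. The use of strand in counting is not given in the sources used here, and shared counting was not tested. Ap5z1, a subunit of the AP-5 coat complex that sorts cargo at late endosomes, stood at 25.2, 22.6 and 20.7 CPM against 49.6 and 44.5 CPM (-1.04 ± 0.18; adjusted p = 0.0199). Both of its groups were narrow. Without any one of the 5 libraries, Clcn7, Mcoln1, Slc38a7, Spns1, Atp6v1b2 and Ap5z1 lost their call, with adjusted p between 0.0514 and 0.316, and Ctns kept it in 1 of 5 cases.

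The promoters of these genes were searched for the core of the element named above. Those of the 4 lower genes with a match are printed for comparison, with the letters of the core E-box CACGTG in capitals. Each line is a RefSeq window of build GRCm38.p6, read 5′ to 3′ on the strand of the gene, from 250 bases before to 50 bases after an annotated start.
Clcn7 (chr17:25133141-25133440, + strand): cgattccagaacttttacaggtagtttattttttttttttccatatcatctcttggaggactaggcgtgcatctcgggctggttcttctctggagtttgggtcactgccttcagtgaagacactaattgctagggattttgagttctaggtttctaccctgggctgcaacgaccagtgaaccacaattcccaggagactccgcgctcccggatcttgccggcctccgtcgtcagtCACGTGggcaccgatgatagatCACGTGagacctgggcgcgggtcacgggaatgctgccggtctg
Mcoln1 (chr8:3500269-3500568, + strand): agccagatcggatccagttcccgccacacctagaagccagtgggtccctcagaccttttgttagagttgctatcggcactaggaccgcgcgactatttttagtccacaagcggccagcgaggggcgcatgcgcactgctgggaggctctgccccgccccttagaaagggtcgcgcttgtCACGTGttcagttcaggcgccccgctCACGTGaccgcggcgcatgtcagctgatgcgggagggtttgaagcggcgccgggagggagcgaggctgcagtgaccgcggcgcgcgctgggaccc
Slc38a7 (chr8:95853442-95853741, - strand): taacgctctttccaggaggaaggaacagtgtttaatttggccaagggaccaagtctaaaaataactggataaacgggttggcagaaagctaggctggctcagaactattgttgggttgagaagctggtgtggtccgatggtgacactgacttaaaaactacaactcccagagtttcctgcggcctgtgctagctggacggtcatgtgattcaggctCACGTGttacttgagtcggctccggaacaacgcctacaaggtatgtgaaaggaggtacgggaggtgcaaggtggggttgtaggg
Ap5z1 (chr5:142463681-142463980, + strand): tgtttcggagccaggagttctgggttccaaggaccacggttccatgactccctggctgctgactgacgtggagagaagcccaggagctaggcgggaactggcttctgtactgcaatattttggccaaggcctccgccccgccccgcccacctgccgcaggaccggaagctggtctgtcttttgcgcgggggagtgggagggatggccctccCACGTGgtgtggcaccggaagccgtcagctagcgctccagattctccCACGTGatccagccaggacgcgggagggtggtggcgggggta
The first base of the match lay at -15 and 8 in Clcn7, at -71 and -45 in Mcoln1, at -34 in Slc38a7 and at -39 and 9 in Ap5z1, with 1 as the annotated start. A further Clcn7 window, from another start, held none. Of the other called lysosomal genes, Ctns and Spns1 had windows without a match, and Atp6v1b2 had no window. Of 20 lower genes, 12 had a window, and 4 of these (33.3%) held CACGTG, which reads the same on both strands. The share was 12% over the 9840 tested genes with a window and 7.15% over all 32851 windows. The longer form CACGTGAC, searched on both strands and always containing the E-box, was present in Mcoln1 (2 matches) and Clcn7, and in 4.88% of tested genes. Among lysosomal genes whatever their change, CACGTG was present in 8 of 24 membrane genes, 13 of 38 hydrolase genes and 4 of 12 V-ATPase genes. A match describes letters in a window and is neither a binding site nor a cause.

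Lists of lysosomal genes were drawn up after these values had been seen, so their counts describe and do not test. Of 29 measured lysosomal membrane genes, edgeR called the 5 named above lower and 0 higher. DESeq2 called 8 lower, these 5 with Lamp1, Glmp and Tmem192, and 0 higher. Over all 12421 genes tested, edgeR called 20 lower and DESeq2 91. In 16 of the 29 both mono-cultures exceeded every co-culture, and in 1 the reverse held, where over all genes tested the shares were 15.2% and 16.7%. The list median log2 fold change was -0.38, beside 0.02 for all genes. Lamp1, an abundant glycoprotein of the lysosomal membrane, stood at 957, 1045 and 921 CPM against 1362 and 1554 CPM without a call by edgeR (log2 -0.58, adjusted p = 0.10). Its partner Lamp2 overlapped between groups, at 194, 263 and 185 CPM against 230 and 284 CPM. Glmp, a lysosomal membrane glycoprotein, came nearer to the threshold, at 362, 331 and 373 CPM against 577 and 549 CPM (-0.66; adjusted p = 0.0594).

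None of the 49 hydrolase and other lumenal genes was called by edgeR, and DESeq2 called 3 lower (Gla, Ctsk and Dpp7). At an unadjusted p under 0.05, where 683 of all 12421 genes were lower and 545 higher, 18 of the 49 were lower and 1 was higher. In 26 both mono-cultures exceeded every co-culture (15.2% of all genes), and the median was -0.44. The dipeptidyl peptidase gene Dpp7 was the nearest to a call, at 54.6, 57.7 and 68.3 CPM against 114 and 134 CPM (-1.04 ± 0.22; adjusted p = 0.0594). Ctsk, the collagen-degrading cathepsin K, stood at 69.3, 104 and 68.1 CPM against 133 and 275 CPM (adjusted p = 0.121), with the 2 mono-cultures far apart. Ctsd, the abundant aspartic protease cathepsin D, stood at 1621, 1371 and 1470 CPM against 1922 and 2127 CPM (adjusted p = 0.624). Co-cultured macrophages held 18270 CPM of Ctsd, and 11 of the 49 genes were rich in macrophages, meaning more than 5 times as high there as in fat mono-cultures. Without these 11 the median was -0.48.

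Of 17 V-ATPase subunit and accessory genes, edgeR called 1 lower, and DESeq2 called 2 lower, Atp6v0d1 and Atp6v1b2, and 0 higher. In 9 both mono-cultures exceeded every co-culture (15.2% of all genes), in 0 the reverse held, and the median was -0.35. Atp6v1a, the A subunit that hydrolyses ATP beside Atp6v1b2, stood at 85.4, 111 and 79.2 CPM against 157 and 131 CPM (-0.65; adjusted p = 0.346). Among regulators of lysosomal genes, Rragc, a GTPase that recruits mTORC1 to lysosomes, stood at 147, 139 and 141 CPM against 226 and 190 CPM. It was not called by edgeR (-0.54, adjusted p = 0.0659) and was called lower by DESeq2. Tfeb at 28.1, 15.6 and 26.3 CPM against 27.4 and 22.1 CPM, and Tfe3 at 111, 111 and 114 CPM against 98.0 and 114 CPM, overlapped between groups, as transcript levels. Leaving out each library in turn kept the medians of the 3 lysosomal lists below 0, though that of the membrane list was -0.23 without mono-culture 3.

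**Figure D3:**
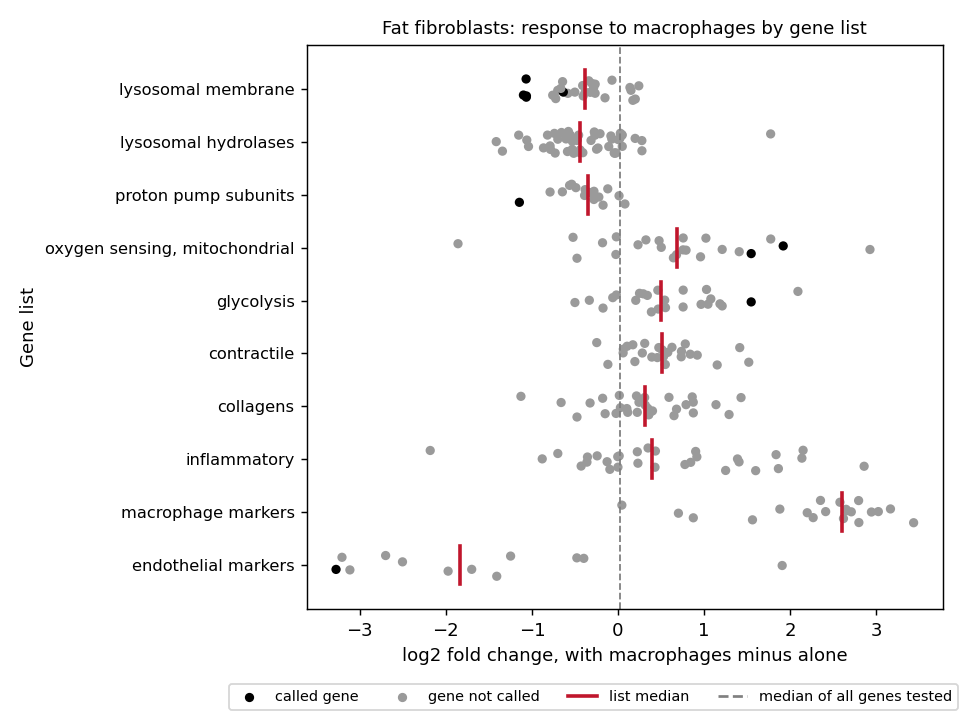
Log2 fold change (with macrophages minus alone) of each tested gene of 10 lists, with black points for called genes, red bars for list medians and a dashed line for the median of all 12421 genes. The 3 lysosomal lists centre at -0.38, -0.44 and -0.35, the oxygen-related lists at 0.68 and 0.51, and the macrophage markers at 2.60.

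Genes of the response to low oxygen stood on the other side. Mgarp, also called HUMMR, a hypoxia-induced protein of mitochondria, was the gene with the smallest p. It stood at 44.4, 43.7 and 50.96 CPM with macrophages and at 9.75 and 14.8 CPM alone. All co-cultures lay well above both mono-cultures and close together, and the log2 fold change was 1.92 ± 0.28 (adjusted p = 0.0168). Egln3, an oxygen-sensing prolyl hydroxylase that is itself a HIF target, stood at 41.7, 39.4 and 46.5 CPM against 16.8 and 12.3 CPM. It rose 2.92-fold with little spread in either group (log2 1.55 ± 0.27; adjusted p = 0.0199). Both were low in macrophages co-cultured with fat fibroblasts, at 3.68 and 10.4 CPM. Mgarp kept its call without co-culture 2 or 3 and lost it without co-culture 1, mono-culture 1 or mono-culture 3 (adjusted p = 0.0552, 0.0989 and 0.0846), while Egln3 lost it without any one library.

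The list of 23 oxygen-sensing, mitochondrial and other HIF target genes was drawn up after values had been seen and holds both called genes. In 14 of its genes every co-culture exceeded both mono-cultures and in 3 the reverse held, beside 16.7% and 15.2% of all genes tested, and its median was 0.68. Cox4i2, the oxygen-regulated isoform of a cytochrome oxidase subunit, stood at 12.3, 13.6 and 14.5 CPM against 0.684 and 2.88 CPM. Ndufa4l2, a mitochondrial protein induced by HIF, stood at 158, 137 and 165 CPM against 26.2 and 63.3 CPM. Neither reached the threshold in edgeR (adjusted p = 0.0594 and 0.119), although the groups lay far apart. DESeq2 called 6 of the 23 genes higher, both of these among them, and 0 lower, beside 51 and 91 over all genes. The 3 genes with both mono-cultures above every co-culture were Epas1, the prolyl hydroxylase gene Egln2 and the collagen lysyl hydroxylase gene Plod2. Epas1, which encodes HIF-2 alpha, stood at 22.7, 49.1 and 32.9 CPM against 74.0 and 180 CPM (adjusted p = 0.232). Hif1a itself stood at 83.0, 223 and 87.9 CPM against 81.6 and 107 CPM, and co-culture 2 alone stood out.

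Of 24 glycolysis and hypoxia genes, Egln3 rose and 0 fell. A further 8 were higher at an unadjusted p under 0.05, as were 545 of all 12421 genes. In 11 of the 24 every co-culture exceeded both mono-cultures (16.7% of all genes), and the median was 0.51. DESeq2 called 4 higher, Egln3, Ldha, Slc16a3 and Car9, and 0 lower. Ldha, which turns pyruvate into lactate, stood at 1938, 2573 and 1707 CPM against 1060 and 901 CPM (1.08 ± 0.27; adjusted p = 0.109). Slc16a3, which exports that lactate, stood at 620, 752 and 508 CPM against 307 and 335 CPM (0.97 ± 0.24; adjusted p = 0.107). For both genes co-culture 2 was the highest library and the groups were apart. Macrophages held 1848 and 440 CPM of them, so that neither met the definition of macrophage-rich. The glucose transporter gene Slc2a1 was not called, at 214, 281 and 176 CPM against 168 and 156 CPM. Gapdh, Pgk1 and Eno1 have near-identical copies to which reads can be assigned, and whether this touched their values was not tested. Gapdh stood at 19.5 CPM in co-culture 1 against 768 and 556 CPM in the others.

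**Figure D4:**
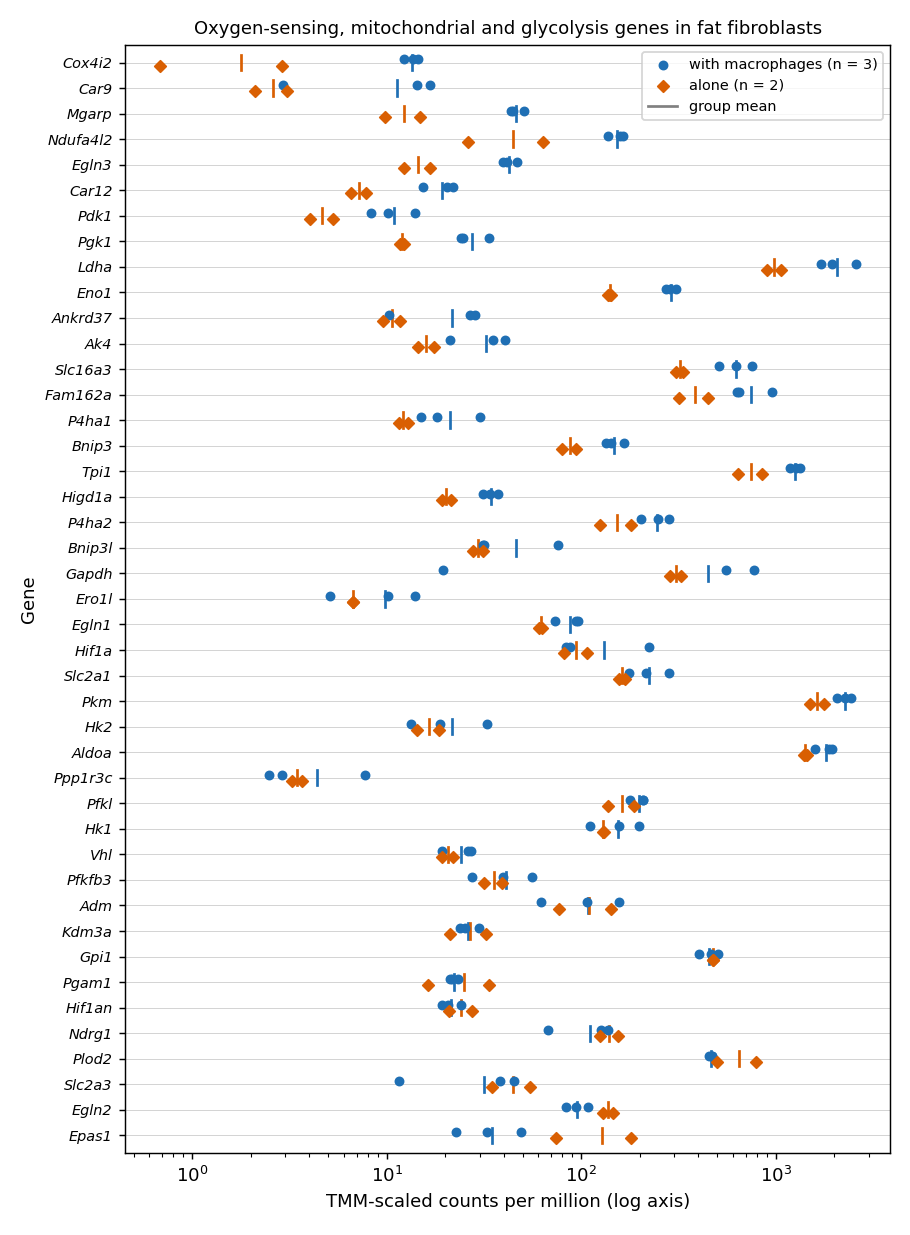
TMM-scaled CPM (log axis) of oxygen-sensing, mitochondrial, HIF target and glycolysis genes in each fat fibroblast library, sorted by log2 fold change, with circles for the 3 co-cultures, diamonds for the 2 mono-cultures and bars for group means. Egln3 and Mgarp were called by edgeR, Cox4i2 at the top and Ndufa4l2 were not, and the genes at the foot, among them Epas1, had lower values with macrophages.

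The promoter of Mgarp is printed for its match to ACGTGC, the core of the element that HIF binds, searched on both strands and shown in capitals as its reverse complement.
Mgarp (chr3:51396498-51396797, - strand): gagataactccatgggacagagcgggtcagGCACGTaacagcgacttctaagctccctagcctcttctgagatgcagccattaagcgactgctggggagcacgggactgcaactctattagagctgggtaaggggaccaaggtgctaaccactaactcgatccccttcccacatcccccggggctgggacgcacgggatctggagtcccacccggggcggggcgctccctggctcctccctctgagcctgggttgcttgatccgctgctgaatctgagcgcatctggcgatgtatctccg
The match began at -220. It was the only one among the 4 higher genes with a window, and 9.53% of tested genes with a window held these letters. They were present in 9 of 18 oxygen-sensing and mitochondrial genes with a window and in 11 of 21 glycolysis and hypoxia genes. ACGTGC shares the letters ACGTG with CACGTG and overlaps it where the latter is followed by C.

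The remaining higher genes were Klf2, Cd248 and Arf2. Klf2, a zinc finger transcription factor of quiescent and flow-exposed endothelium and of leukocytes, stood at 52.4, 50.9 and 30.3 CPM against 15.6 and 11.9 CPM. It rose 3.23-fold (log2 1.69 ± 0.27; adjusted p = 0.0188). It was the only higher gene rich in macrophages, which held 406 CPM of it, and 596 of the genes tested were macrophage-rich. The estimated macrophage shares of co-cultures 1, 2 and 3 were 3.96%, 0.901% and 0.381%. Klf2 was about the same in co-cultures 1 and 2 and lower in co-culture 3. The part of macrophage RNA in its rise was not tested. Cd248, or endosialin, a surface protein of activated fibroblasts and pericytes, stood at 234, 354 and 188 CPM against 95.8 and 91.2 CPM. It rose 2.77-fold (log2 1.47 ± 0.25; adjusted p = 0.0199), with the highest value in co-culture 2. Macrophages held 9.34 CPM of it. Arf2, a small GTPase of vesicle traffic, stood at 104, 78.3 and 74.6 CPM against 50.4 and 37.6 CPM (0.96 ± 0.19; adjusted p = 0.0379). Cd248 and Klf2 kept their calls only without co-culture 3 (adjusted p = 0.0237 and 0.00965), and Arf2 kept its call in none of the 5 cases.

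Endothelial genes made up a separate part of the lower genes. Dll4, the Notch ligand of arterial and sprouting endothelium, stood at 0.803, 1.36 and 0.668 CPM against 14.5 and 6.14 CPM. Tie1, an endothelial receptor tyrosine kinase, stood at 0.803, 1.36 and 0.890 CPM against 11.6 and 8.64 CPM. Gpihbp1, which carries lipoprotein lipase across capillary endothelium, stood at 1.07, 1.13 and 1.56 CPM against 34.5 and 9.60 CPM. All 3 were near the level of 3 counts in the co-cultures, where Dll4 summed to 12, Tie1 to 13 and Gpihbp1 to 16 counts over 3 libraries. They fell by 3.42 ± 0.65, 3.28 ± 0.59 and 4.10 ± 0.73 on the log2 scale (adjusted p = 0.0320, 0.0263 and 0.0295). Without mono-culture 1 the values were -2.69 for Dll4 and -2.92 for Gpihbp1, each with an adjusted p of 0.316. Of the 12 endothelial markers, edgeR called Tie1 alone, and DESeq2 called Tie1 and Egfl7 lower. In 8 both mono-cultures exceeded every co-culture (15.2% of all genes), in 1 the reverse held (16.7%), 3 overlapped (Kdr, Emcn and Esam), and the median was -1.84. The reverse held for Vwf, at 2.14, 1.13 and 1.11 CPM against 0.171 and 0.576 CPM. Macrophages held 53.5 CPM of Vwf. Pecam1, the adhesion molecule CD31, stood at 1.87, 14.5 and 4.90 CPM against 49.9 and 31.3 CPM (adjusted p = 0.339). Cdh5, the cadherin of endothelial junctions, stood at 2.14, 9.51 and 4.67 CPM against 44.6 and 26.9 CPM (adjusted p = 0.312). Whether these differences stem from fewer endothelial cells in the sort was not tested.

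Mlana, a protein of pigment cells, had the lowest log2 fold change of the called genes (-4.35 ± 0.84; adjusted p = 0.0378). It stood at 0.535, 4.30 and 2.67 CPM against 41.6 and 63.5 CPM. The other pigment cell gene in the table, Pmel, stayed under 3 CPM in every library. Slc18a1, a vesicular monoamine transporter of neuroendocrine cells, was near the limit of detection, with 5 counts in all co-cultures together and 45 in the mono-cultures (adjusted p = 0.0295). Auts2, a nuclear regulator known from neural development, stood at 14.2, 10.9 and 16.0 CPM against 28.7 and 28.4 CPM (adjusted p = 0.0379).

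Several lower genes are known from metabolism and from adipose tissue. Slc6a8, the creatine transporter, stood at 125, 159 and 171 CPM against 369 and 396 CPM. It fell 2.52-fold with narrow groups (log2 -1.33 ± 0.21; adjusted p = 0.0188), and it lost its call without each library other than co-culture 3, with adjusted p from 0.0506 to 0.122. Cdo1, the cysteine dioxygenase that starts cysteine breakdown, stood at 16.6, 6.34 and 19.6 CPM against 48.2 and 110 CPM (-2.48 ± 0.41; adjusted p = 0.0188). Pparg, the master regulator of fat cell differentiation, was low throughout, at 1.87, 1.81 and 1.34 CPM against 3.93 and 11.3 CPM (-2.17 ± 0.40; adjusted p = 0.0297). The secreted protein gene Mamdc2 stood at 2.41, 2.94 and 6.01 CPM against 16.2 and 78.9 CPM (-3.63 ± 0.68; adjusted p = 0.0305). In Cdo1, Pparg and Mamdc2 mono-culture 3 was far above mono-culture 1. Without it their log2 values were -1.77, -1.23 and -2.09 (adjusted p = 0.308, 0.510 and 0.519), and without mono-culture 1 they were -2.98, -2.76 and -4.38.

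Pparg was the only called gene of 16 tested adipogenic genes, whose median was -0.03. Lpl, the lipase that frees fatty acids from circulating fat, stood at 147, 89.7 and 58.1 CPM against 316 and 453 CPM (adjusted p = 0.624). Fabp4, a fatty acid carrier, overlapped between groups at 111, 153 and 109 CPM against 101 and 157 CPM. A further 3 genes completed the lower set. Trp53i11, a p53-inducible gene, stood at 26.8, 21.7 and 40.3 CPM against 119 and 88.9 CPM (-1.81 ± 0.34; adjusted p = 0.0305). Zswim8, an adaptor of a ubiquitin ligase that promotes microRNA decay, stood at 139, 125 and 147 CPM against 216 and 218 CPM (-0.66 ± 0.13; adjusted p = 0.0402). Pip4k2c, a phosphatidylinositol phosphate kinase, stood at 74.7, 71.3 and 79.9 CPM against 112 and 117 CPM (-0.61 ± 0.12; adjusted p = 0.0401).

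Matrix, contractile and inflammatory genes gave no call by edgeR. Over all 12421 genes tested, 545 were higher and 683 lower at an unadjusted p under 0.05. Of 30 collagen and collagen-processing genes 3 were higher and 0 lower at an unadjusted p under 0.05, the median was 0.31, and DESeq2 called 0. Col1a1, a chain of type I collagen, stood at 746, 860 and 687 CPM against 409 and 424 CPM (0.88 ± 0.28; adjusted p = 0.247), with the groups apart. Col3a1, the chain of type III collagen, overlapped at 2831, 3103 and 2609 CPM against 2684 and 2900 CPM. Of 25 contractile genes 4 were higher and 0 lower at an unadjusted p under 0.05, 11 had every co-culture above both mono-cultures (16.7% of all genes), the median was 0.51, and DESeq2 called 0. Acta2, the smooth muscle actin of myofibroblasts, overlapped at 87.0, 121 and 53.6 CPM against 63.4 and 34.0 CPM. The calponin gene Cnn1 stood at 245, 553 and 178 CPM against 160 and 83.9 CPM (adjusted p = 0.651).

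Of 30 inflammatory genes 7 were higher and 0 lower at an unadjusted p under 0.05, beside 545 and 683 of all 12421 genes. In 12 of the 30 every co-culture exceeded both mono-cultures (16.7% of all genes). DESeq2 called Ccl2, Ccl7 and Cxcl10 higher, beside 51 over all genes. The median was 0.39, and 0.23 without the 5 macrophage-rich genes of the list. Ccl2, which attracts monocytes, stood at 264, 373 and 339 CPM against 180 and 92.5 CPM (1.25 ± 0.34; adjusted p = 0.140). Its relative Ccl7 stood at 52.2, 175 and 72.8 CPM against 34.2 and 21.7 CPM (1.84 ± 0.43; adjusted p = 0.0931). Cxcl10, an interferon-induced T cell attractant, stood at 30.5, 13.6 and 41.4 CPM against 7.01 and 5.76 CPM (2.15 ± 0.49; adjusted p = 0.0841). In each of these the lowest co-culture lay above the higher mono-culture, but co-culture 2 was highest for the CCL genes and lowest for Cxcl10. Il6 stayed under 10 CPM in every library and was not called. Cxcl12, the stromal chemokine, ranged without order by group, at 758, 171 and 830 CPM against 588 and 1570 CPM.

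The growth factor genes by which fibroblasts and macrophages sustain each other showed no call among 25 tested by edgeR, with 1 higher at an unadjusted p under 0.05, the macrophage receptor gene Csf1r, which DESeq2 called higher. Csf1, the macrophage growth factor, stood at 834, 1022 and 556 CPM against 728 and 417 CPM (0.49 ± 0.29; adjusted p = 0.634), so that the groups overlapped. Receptors for platelet-derived growth factor overlapped as well, with Pdgfra at 146, 125 and 186 CPM against 93.9 and 189 CPM and Pdgfrb at 213, 249 and 275 CPM against 189 and 388 CPM. Pdgfb, a ligand of both, stood at 5.08, 8.60 and 6.45 CPM against 20.9 and 15.2 CPM (adjusted p = 0.610). Egfr overlapped at 92.9, 82.9 and 128 CPM against 104 and 99.4 CPM, and its ligand gene Hbegf at 32.7, 39.4 and 33.2 CPM against 41.2 and 19.0 CPM. A p above the threshold does not show that these genes were equal. The other programmes, from the cell cycle and sterol synthesis to interferon-stimulated genes, had 0 genes called by edgeR apart from Klf2 among the immediate early genes and Cd248 among the fibroblast identity genes. Each of these lists held at most 5 genes in either direction at an unadjusted p under 0.05, and their medians lay between -0.32 and 0.42. DESeq2 called Serpine2, Ctsk, Psmb8 and Lamp1 in them beside Klf2 and Cd248.

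The genes called in fat were set beside the same contrast in lung (3 co-cultures and 3 mono-cultures) and mammary fibroblasts (5 and 5), which share no library with fat. For 1 lung mono-culture the title names lung and the source label names mammary fat pad, and it was kept with lung. All 5 higher genes were also above 0 in both organs. Mgarp and Egln3 were called higher in both, by 2.42 and 1.52 in lung and by 1.02 and 1.02 in mammary fibroblasts on the log2 scale, and Cd248 in lung (1.13). Of all genes, 1.31% were called in lung and 3.65% in mammary fibroblasts, and 1.17% and 2.36% were called higher. Of the 20 lower genes, 15 were below 0 in lung and 16 in mammary fibroblasts, where 54.3% and 50% of all genes were. In lung 2 of them were called lower, Atp6v1b2 (-0.94) and Slc18a1, against 0.145% of all genes. In mammary fibroblasts 9 were called lower, among them Clcn7 (-0.66), Slc38a7 (-0.78), Spns1 (-0.40), Atp6v1b2 (-0.70), Slc6a8 (-0.82) and Mlana (-3.75), against 1.29% of all genes. Mcoln1, Ctns and Ap5z1 were called in fat and not in the other organs, but their differences between organs did not pass the interaction test, with adjusted p of 0.184 or more. List medians in lung and mammary fibroblasts were -0.25 and -0.29 for lysosomal membrane genes and -0.09 and -0.22 for hydrolases. For V-ATPase genes they were -0.43 and -0.47, with 2 and 7 genes called lower. The oxygen-sensing list stood at 1.09 and 0.64, with 9 genes called higher in each organ, and the glycolysis list at 1.01 and 0.36.

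**Figure D5:**
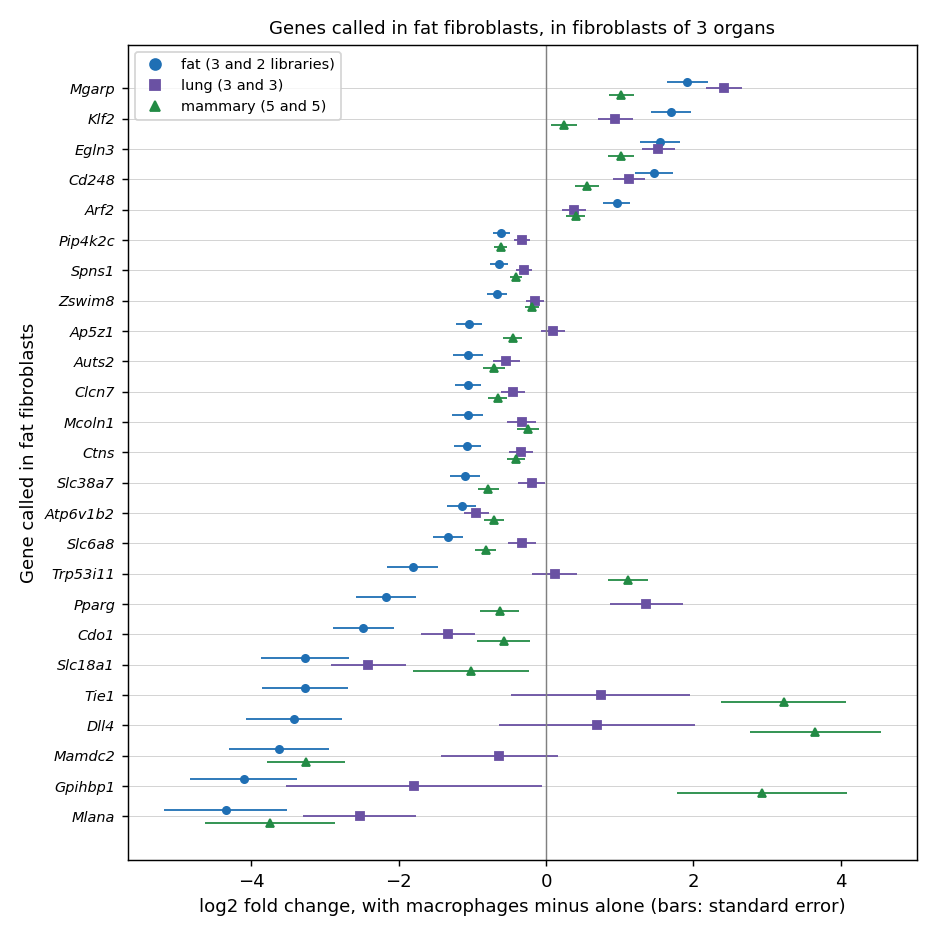
Log2 fold changes with standard errors of the 25 genes called in fat fibroblasts, in fat (circles), lung (squares) and mammary fibroblasts (triangles). Mgarp and Egln3 lie to the right and Atp6v1b2 to the left in all 3 organs, whereas Dll4, Tie1 and Trp53i11 are negative in fat and positive in mammary fibroblasts.

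The response itself was tested for a difference between organs. Between fat and lung the edgeR interaction test called 0 of 12421 genes (smallest adjusted p = 0.0782), with 813 at an unadjusted p under 0.05, and DESeq2 called 46. Without the lung library of doubtful label the count was also 0. Between fat and mammary fibroblasts it called 3 (0.0242%), Dll4, Tie1 and Trp53i11, each lower in fat and higher in mammary co-cultures. Trp53i11 averaged 16.5 ± 5.64 CPM with macrophages and 7.59 ± 2.70 CPM alone in mammary fibroblasts (SD, n = 5 each), an increase of 1.11 ± 0.27 on the log2 scale (adjusted p = 0.0253). The difference between the organs was -2.92 ± 0.43 (adjusted p = 0.0184). Dll4 and Tie1 were at most near detection in mammary fibroblasts, with means of 0.832 ± 0.476 and 0.629 ± 0.389 CPM with macrophages and 0.0448 ± 0.1001 CPM each alone (SD, n = 5 each). Without co-culture 1 or without mono-culture 1 the interaction test between fat and mammary fibroblasts called 0 genes.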

How the data were processed

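Per the labels, 3′-end RNA libraries were made from sorted macrophages and fibroblasts. Per the submitters' processing notes, bcl2fastq, STAR 2.4.2a and HTSeq were used with the mm10 genome. Neither annotation nor strand use nor molecular identifiers are stated in these sources. The authors deposited raw counts per gene, and their normalized tables were not used. Fat mono-culture columns are numbered 1 and 3 and the labels 1 and 2, so they were mapped to the group only.

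The 21 fibroblast libraries were fitted in 1 model with a coefficient for each organ and culture, with edgeR 4.0.16 in R 4.3.3 (TMM scaling, filterByExpr with a minimum count of 10, robust quasi-likelihood F-test). Genes with a Benjamini-Hochberg adjusted p under 0.05 over all 12421 tested are called. The standard error is the absolute log2 fold change divided by the square root of F. Differences between organs are interaction contrasts. The methods were tested on simulated data. Alternatives were DESeq2 1.42.0, other scalings and filters, fat libraries only, a replicate block and leaving out each library. CPM are not divided by length, so levels are compared only within a gene. Chi-square per degree of freedom between libraries of a group was 8.1 to 22.3, so none was a copy of another.

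The rule for named genes took called genes without overlap between groups that averaged 20 CPM or more (the 10 highest not rich in macrophages, 4 highest rich in them and 10 lowest), called members and the most abundant other member of each list, interaction genes and a set of signalling genes. Gpihbp1, Dll4, Tie1, Slc18a1, Pparg and Auts2, which lie below that mean, and genes of the lysosomal, V-ATPase, oxygen-sensing and pigment cell lists were named after their values were seen, as were other list members given as examples. The members and lists were chosen with earlier results of these data known. Promoter windows are from RefSeq GRCm38.p6.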

Additional observations from a re-analysis of the deposited data

Results flagged for a closer look

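The responses of 3 genes differed between fat and mammary fibroblasts by edgeR's interaction test. The fat minus mammary difference in log2 fold change was -7.07 for Dll4, -6.50 for Tie1 and -2.92 for Trp53i11, each with an adjusted p of 0.0184. Each was lower with macrophages in fat and higher with them in mammary fibroblasts. Dll4 and Tie1 summed to 12 and 13 counts over the 3 fat co-cultures and averaged 0.0448 CPM in mammary mono-cultures, so the size of their differences rests on counts near the limit of detection. Endothelial markers summed to 383 and 224 CPM in the fat mono-cultures and to 81.4 to 144 CPM in the fat co-cultures, and their part in the Dll4 and Tie1 values was not tested.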

How the results depend on the processing

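The 25 calls between fat fibroblasts with and without macrophages became 142 with DESeq2, 81 with a replicate block, 63 at an adjusted p under 0.10 and 0 with fat libraries only, and 22 to 24 with other scalings, no filter on low counts or without macrophage-rich genes. The threshold of 0.10 and upper-quartile scaling were chosen after seeing the data. Leaving out 1 fat library gave 0 to 7 calls. The interaction count between fat and lung, 0, became 46 with DESeq2 and 20 with the replicate block, and 0 to 9 when 1 fat library was left out. That between fat and mammary fibroblasts, 3, became 27 with DESeq2 and 1 with the block, which was none of those 3, and 0 to 4 when 1 fat library was left out. The causes were not tested. The fat columns share only the numbers 1 and 3, and same-numbered libraries deviated together with r of 0.0125 and 0.16. With 2 mono-cultures, the deviations of 1 from their mean mirror those of the other. These values are therefore not separate checks and can neither show nor exclude a pairing. Of the 25 genes, 17 were among the 81 called with the block. Over the settings run, 151 single-gene values lost their call, 391 kept direction and side of the threshold, 1 gained a call and 37, in 17 genes that were not called, changed sign; none of the 25 called genes did. Leaving out 1 fat library, the log2 values of these ranged, for B2m from -0.039 to 0.73, Cd63 from -0.22 to 0.056, Cdkn1a from -0.12 to 0.79, Cox6a1 from -0.046 to 0.25, Dcn from -0.46 to 0.17, Egfr from -0.21 to 0.12, Ezr from -0.40 to 0.96, Gpx3 from -1.28 to 0.11, Hbegf from -0.24 to 0.86, Id3 from -0.20 to 0.24, Ier3 from -0.25 to 0.13, Ifi27 from -0.14 to 0.34, Igf1 from -0.43 to 0.40, Pdgfra from -0.33 to 0.69, Pdgfrb from -0.68 to 0.37, Serping1 from -0.82 to 0.32 and Sparc from -0.065 to 0.15. With the block the sign changed in B2m (-0.076), Cox6a1 (-0.020), Dcn (0.079), Egfr (0.10) and Sparc (-0.019), with no filter in Id3 (-0.00016) and with fat libraries only in Id3 (-0.012) and Igf1 (-0.0063). Of the list medians, 29 moved and 133 did not. With 2 mono-cultures, the values rest on few libraries, and 3 counts equal 0.555 to 0.834 CPM in the fat libraries.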
